A study of Mus musculus with 4 samples.

Results

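The 37 genes of the mouse mitochondrial chromosome were taken as all genes whose annotated symbol starts with mt-, 37 of the 55536 genes in the deposited gene tables. They comprised 13 mRNA genes, 2 ribosomal RNA genes and 22 tRNA genes. Polyadenylated RNA was sequenced from macrophages grown out of C57BL/6J mouse bone marrow, in 4 libraries numbered as biological replicates 1 to 4. All 4 belonged to 1 group, cells exposed to a stimulus at 100 ng/mL for 60 minutes, which the labels name both as lipid A and as lipoprotein A and which is called the stimulus here. All libraries carried 1 donor label, and no source says whether separate animals or cultures were used, so a difference between libraries, and any p-value for it, measures spread among these samples alone and may be technical. No unstimulated cells were analysed here, so no value below is a response to the stimulus.

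Mitochondrial DNA is a small circular genome whose mRNAs encode membrane subunits of respiratory complexes I, III and IV and of ATP synthase, while complex II and all the other subunits come from nuclear genes. Both strands are transcribed as long precursors, which are cut at the tRNAs that lie between the other genes, and the released mRNAs receive short poly(A) tails that complete some of their stop codons. Macrophages that meet bacterial ligands are known to alter their respiration, and mitochondrial nucleic acids that leave the organelle are known ligands of innate sensors.

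Each library had between 26917324 (replicate 1) and 39438414 (replicate 4) gene counts, and nuclear ribosomal RNA took 12.3%, 3.26%, 4.44% and 6.98% of them in replicates 1 to 4. The macrophage markers (7 of 7 genes, Lyz2 and Cd68 among them) summed to between 18582 and 33432 TPM. The B cell, T cell, erythroid and stromal lists summed to at most 0.48 TPM in any library. TPM is a level per transcript length, on a scale common to all genes of a library. An expected count is a read count in which reads shared by several genes are divided among them by estimation.

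Along the chromosome the genes lay almost without spacing in the GENCODE M21 annotation of build mm10. Of 36 junctions between neighbouring genes, 12 abutted exactly, 9 overlapped, and 14 had a gap of at most 5 bases; the largest gap was 32 bases, between mt-Tn and mt-Tc. Several genes share bases, so that reads over them belong to both. mt-Atp8 and mt-Atp6 share 43 bases, mt-Nd4l and mt-Nd4 share 7, and mt-Nd5 and mt-Nd6 overlap by 14 on opposite strands. mt-Nd6, a complex I subunit, was the only mRNA gene on the light strand and was the richest in G, at 28.1% G and 5.97% C, whereas the other mRNA genes held 5.88% to 16.1% G. mt-Co3, mt-Nd4 and mt-Cytb ended in a lone T past their last codon, the form that a poly(A) tail completes to a stop codon. The start codons were GTG in mt-Nd1, ATA in mt-Nd2, ATT in mt-Nd3, ATC in mt-Nd5 and ATG in the other mRNA genes.

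Of the 13 mRNA genes, 7 had a near-identical copy among annotated nuclear genes, and reads over the shared bases cannot be assigned to one or the other by sequence. Nuclear sequence outside annotated transcripts was not searched. That includes the stretch between the copies of mt-Co2 and mt-Atp6, where mt-Atp8 lies in the mitochondrial order. The 7 copies, annotated as unprocessed pseudogenes, lay together at chr1:24611535-24616197 (mm10, minus strand), a stretch of 4663 bases. On that strand they ran in the mitochondrial order, from the mt-Co1 copy Gm29216 through Gm28661 (mt-Co2), Gm10925 (mt-Atp6), Gm28437 (mt-Co3), Gm28438 (mt-Nd3) and Gm10222 (mt-Nd4l) to Gm28439 (mt-Nd4). Gm10222 was found by its sequence shared with mt-Nd4l and was singled out after its values had been seen. The copies of mt-Nd4l, mt-Atp6, mt-Co3, mt-Co2 and mt-Nd4 matched their genes at 294, 678, 783, 681 and 876 compared bases with no substitution. The annotated copies of mt-Atp6, mt-Co2 and mt-Nd4l ended before the stop codon, and that of mt-Co3 before the final base. Nuclear bases past these annotated ends were not compared, so the ends are not known to differ in the genome. The TAA of mt-Nd4l lies in the bases shared with mt-Nd4, which Gm28439 matched. Ends of mt-Atp6, mt-Co3 and mt-Co2 are shown with the bases past the annotated copy in capitals. Sequences are from the GENCODE M21 transcripts.
mt-Atp6, last bases, chrM:8575-8607, plus strand: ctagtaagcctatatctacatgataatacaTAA
Gm10925, last bases, chr1:24613974-24614003, minus strand: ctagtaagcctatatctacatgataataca
mt-Co3, last bases, chrM:9360-9390, plus strand: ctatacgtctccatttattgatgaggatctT
Gm28437, last bases, chr1:24613189-24613218, minus strand: ctatacgtctccatttattgatgaggatct
mt-Co2, last bases, chrM:7664-7696, plus strand: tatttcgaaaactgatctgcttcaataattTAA
Gm28661, last bases, chr1:24614885-24614914, minus strand: tatttcgaaaactgatctgcttcaataatt

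The copies of mt-Nd3 and mt-Co1 also differed from their genes near their own start. mt-Nd3 has a final TAA past the annotated end of Gm28438. Over the 345 bases compared the pair differed by T3C, counted from 1 at the first base of the mitochondrial gene, with the mitochondrial base first. Gm29216 matched the last 492 bases of mt-Co1 apart from 6 substitutions, T1056A, C1057T, A1059G, A1060G, C1062A and A1066T, all within its first bases, and was identical over the 479 bases after them. Their first bases are shown with the differing bases in capitals.
mt-Nd3, chrM:9459-9498, plus strand: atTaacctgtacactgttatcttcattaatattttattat
Gm28438, chr1:24613080-24613119, minus strand: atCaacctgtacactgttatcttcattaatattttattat
mt-Co1, chrM:6381-6420, plus strand: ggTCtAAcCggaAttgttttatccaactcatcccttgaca
Gm29216, chr1:24616158-24616197, minus strand: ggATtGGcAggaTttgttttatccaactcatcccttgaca

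The mitochondrial gene's share of its pair's counts ran from nearly none to all. In the gene table, mt-Co3, a core subunit of complex IV, held 3.41% ± 3.81 (SD, n = 4) of the counts of its pair and mt-Atp6, the proton channel subunit of ATP synthase, held 1.90% ± 1.95. mt-Co2, which takes electrons from cytochrome c, held 5.65% ± 4.97, and mt-Nd3, a small complex I subunit, held 5.92% ± 1.82. mt-Nd4l held 37.5% ± 13.1, mt-Co1, which carries the site of oxygen reduction, held 92.1% ± 1.03, and mt-Nd4, with 502 bases beyond its copy, held 100% in every library.

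A second quantification, made by the authors straight from the reads, divided the same pairs differently. It gave mt-Atp6 63.6% to 99.8% of its pair, mt-Co3 20.4% to 86.6%, mt-Co2 2.84% to 37.1% and mt-Nd3 26.1% to 55.2%. mt-Nd4l took 100% in all 4 libraries there, against 24.7% to 50.9% in the gene table. The sums of gene and copy moved far less. The ratio of the CPM (counts scaled by library size) of the second quantification to that of the gene table was taken. It was 0.902 to 1.15 for the 7 sums, and 0.911 to 1.16 for the 8 genes without an annotated copy. For mt-Co3 alone this ratio reached 5317 in replicate 4, where the gene table held 4.11 counts of it.

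**Figure D1:**
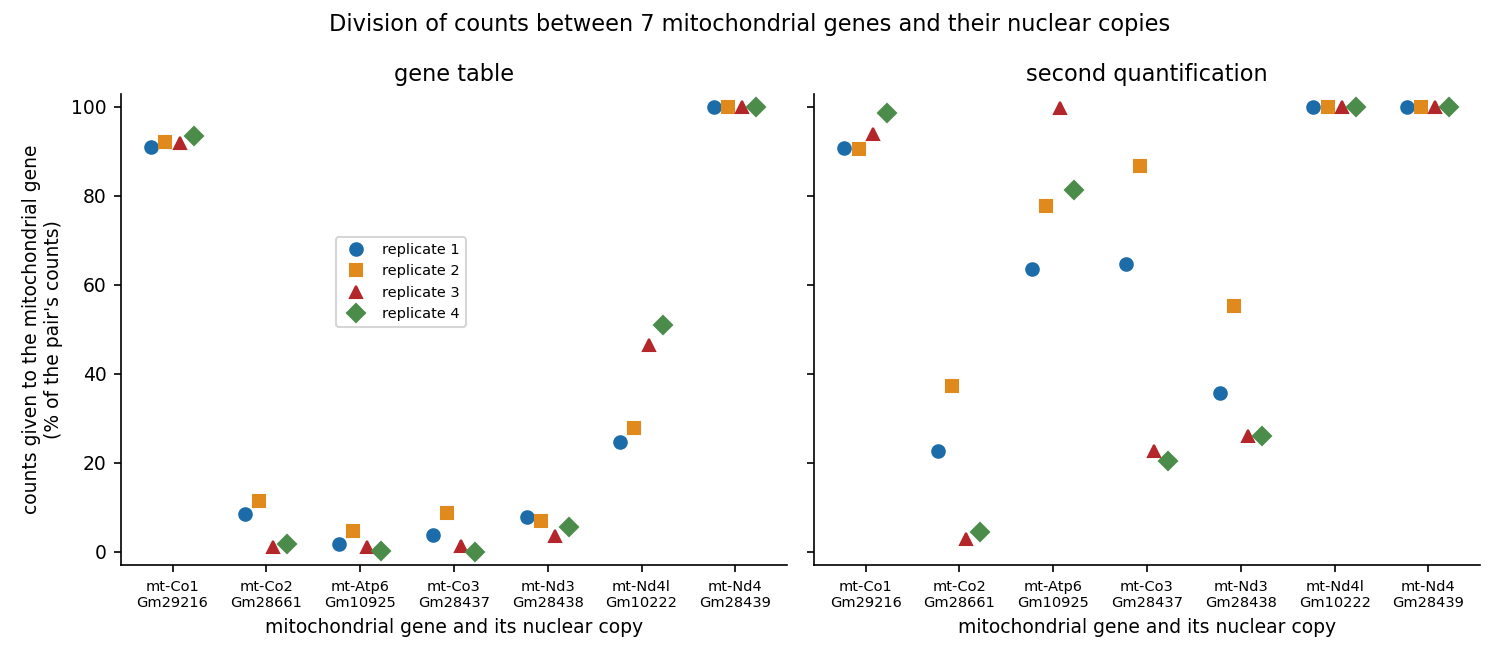
Percent of the summed counts of each mitochondrial gene and its nuclear copy that was given to the mitochondrial gene, in the gene table (left) and in the second quantification (right); each point is 1 library. mt-Atp6 stood below 5% in all libraries on the left and above 60% on the right, while mt-Co1 and mt-Nd4 stayed above 90% in both.

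The deposited bounds for the TPM of these genes showed the same. For mt-Co3 in replicate 4 the deposited credibility interval ran from 1864 to 2974 TPM although the table's own TPM was 0.31, and for mt-Atp6 in that library it ran from 141 to 568 TPM, above the table's TPM of 14.1. For genes without an annotated copy the interval was narrow, as for mt-Cytb in replicate 4, at 1987 to 2024 TPM. The table's TPM there was 2078, while the bounds belong to the posterior mean, which was 2006 TPM. Levels of mt-Co1, mt-Co2, mt-Atp6, mt-Co3, mt-Nd3, mt-Nd4l and mt-Nd4 are therefore also given as sums with their copies, the copy's TPM first put on the effective length of the mitochondrial gene. Such a sum contains any transcript of the copy itself.

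Together the mitochondrially encoded genes held 1.31%, 2.12%, 3.11% and 1.82% of gene counts in replicates 1 to 4, a mean of 2.09% ± 0.760 (SD, n = 4). With the copies added the share was 1.95%, 2.92%, 4.69% and 2.63%, a mean of 3.05% ± 1.17. The copies therefore held 27.4% to 33.6% of the joint counts in the gene table, and 12.8% to 21.5% in the second quantification. Replicate 3 had the highest share and replicate 1 the lowest, in both of these counts. In bulk RNA, fewer cells of a type and less RNA per cell cannot be told apart.

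Among the mRNAs, those of complex IV stood highest by count. Of all mitochondrial mRNA counts with copies added, mt-Co1 took 36.1% ± 4.06, mt-Co2 11.3% ± 1.54 and mt-Co3 10.8% ± 1.61 (SD, n = 4). The smallest shares belonged to the short genes mt-Atp8, at 1.09% ± 0.219, mt-Nd3, at 1.02% ± 0.352, and mt-Nd4l, at 0.607% ± 0.188.

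Per transcript length, complex IV and ATP synthase mRNAs also came before those of complex I. mt-Co2 (chrM:7013-7696) with its copy stood at 7639, 10796, 19977 and 8094 TPM in replicates 1 to 4. mt-Co1 (chrM:5328-6872) with its copy stood at 7775, 12774, 15121 and 10809 TPM. Their means, 11627 ± 5739 and 11620 ± 3111 TPM (SD, n = 4 each), were alike, and mt-Co2 was the higher of the pair in 1 of 4 libraries. As deposited, without the copy, mt-Co1 had 7072, 11765, 13895 and 10101 TPM. As deposited mt-Co2 had 639, 1217, 228 and 147 TPM, the highest in the library in which the table gave it the largest part of the pair.

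mt-Co3 (chrM:8607-9390) with its copy had 6248, 6978, 12576 and 8578 TPM in replicates 1 to 4, and mt-Atp6 (chrM:7927-8607) with its copy had 5750, 7513, 13270 and 7638 TPM. These genes are neighbours on the chromosome, overlap by 1 base and stood close to each other in every library. As deposited, mt-Co3 had 227, 605, 168 and 0.31 TPM and mt-Atp6 had 92.0, 353, 149 and 14.1 TPM. Together with mt-Nd3 they had the lowest deposited means of the 13 mRNA genes.

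mt-Atp8, a small membrane subunit of ATP synthase, had the highest mean TPM over the 4 libraries of all protein-coding genes in the gene table, with 18529, 22784, 42576 and 34780 TPM in replicates 1 to 4. The gene is 204 bases long, and the gene table gave it an effective length, the number of positions at which a fragment can start, of only 12.2 to 18.9 bases. In the second quantification the effective length was 44.3 to 50.7 bases and the level 4839, 5312, 10120 and 7852 TPM, below mt-Co1 and mt-Co2 with their copies in mean level. By CPM, which does not divide by length, it stood at 223, 268, 361 and 319. The whole gene is shown for its shortness, with the 43 bases that it shares with mt-Atp6 in capitals.
mt-Atp8, chrM:7766-7969, plus strand: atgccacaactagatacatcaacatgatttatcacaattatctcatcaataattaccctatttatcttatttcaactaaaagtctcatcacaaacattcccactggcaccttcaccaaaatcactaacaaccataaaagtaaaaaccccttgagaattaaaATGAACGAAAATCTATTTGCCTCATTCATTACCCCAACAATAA

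The 7 complex I mRNAs spanned 1642 to 4347 TPM on average with copies added. mt-Nd1 (chrM:2751-3707), which lies at the junction of the membrane and matrix arms, had 2601, 3344, 6952 and 2514 TPM in replicates 1 to 4. The proton-pumping subunits mt-Nd2, mt-Nd4 and mt-Nd5 stood lower. mt-Nd2 (chrM:3914-4951) had 1158, 1678, 3186 and 1534 TPM, mt-Nd4 (chrM:10167-11544) had 1571, 2697, 4345 and 1538 TPM, and mt-Nd5 (chrM:11742-13565) had 1202, 1814, 2125 and 1428 TPM. Replicate 3 was the highest library for each of these 4 genes.

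mt-Nd6 (chrM:13552-14070, minus strand) had 2141, 3172, 5958 and 2685 TPM, and mt-Nd3 (chrM:9459-9806) with its copy had 2397, 2340, 7393 and 5257 TPM. mt-Nd4l (chrM:9877-10173) with its copy had 3031, 4808, 4200 and 2962 TPM and was the only mRNA gene whose highest library was replicate 2. As deposited, mt-Nd3 had 184, 163, 265 and 287 TPM and mt-Nd4l had 750, 1338, 1948 and 1507 TPM. mt-Cytb (chrM:14145-15288), the one mitochondrially encoded subunit of complex III, had 2012, 3219, 5595 and 2078 TPM.

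The rRNAs stood below every mRNA in mean level with copies added; as deposited, they were above mt-Co2, mt-Co3, mt-Nd3, mt-Atp6 and mt-Nd4l. mt-Rnr1 (chrM:70-1024), the RNA of the small mitochondrial ribosomal subunit, had 788, 1157, 1690 and 2352 TPM, and mt-Rnr2 (chrM:1094-2675), that of the large subunit, had 637, 1332, 1959 and 2130 TPM in replicates 1 to 4. Libraries were prepared from polyadenylated RNA, so these values are the level in that fraction. Both were lowest in replicate 1 and highest in replicate 4.

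Most of the neighbouring steps in the order of means did not hold in every library. With copies added the order of means was mt-Atp8, mt-Co2, mt-Co1, mt-Co3, mt-Atp6, mt-Nd3, mt-Nd1, mt-Nd4l, mt-Nd6, mt-Cytb, mt-Nd4, mt-Nd2, mt-Nd5, mt-Rnr2 and mt-Rnr1. The gene was above the next in all 4 libraries for mt-Atp8 over mt-Co2, mt-Co1 over mt-Co3, mt-Atp6 over mt-Nd3, mt-Cytb over mt-Nd4 and mt-Nd4 over mt-Nd2. At the other 9 steps at least 1 library went the other way. The second quantification gave the same last 5 places. It put mt-Co1 in place 1 and mt-Atp8 in place 3, and moved mt-Nd6 to place 6, mt-Nd3 to place 8 and mt-Nd4l to place 10. The effective length of mt-Nd3 was 93.7 to 110 bases in the gene table and 126 to 143 in the second quantification. For mt-Nd4l it was 58.0 to 71.0 and 94.5 to 105 bases.

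**Figure D2:**
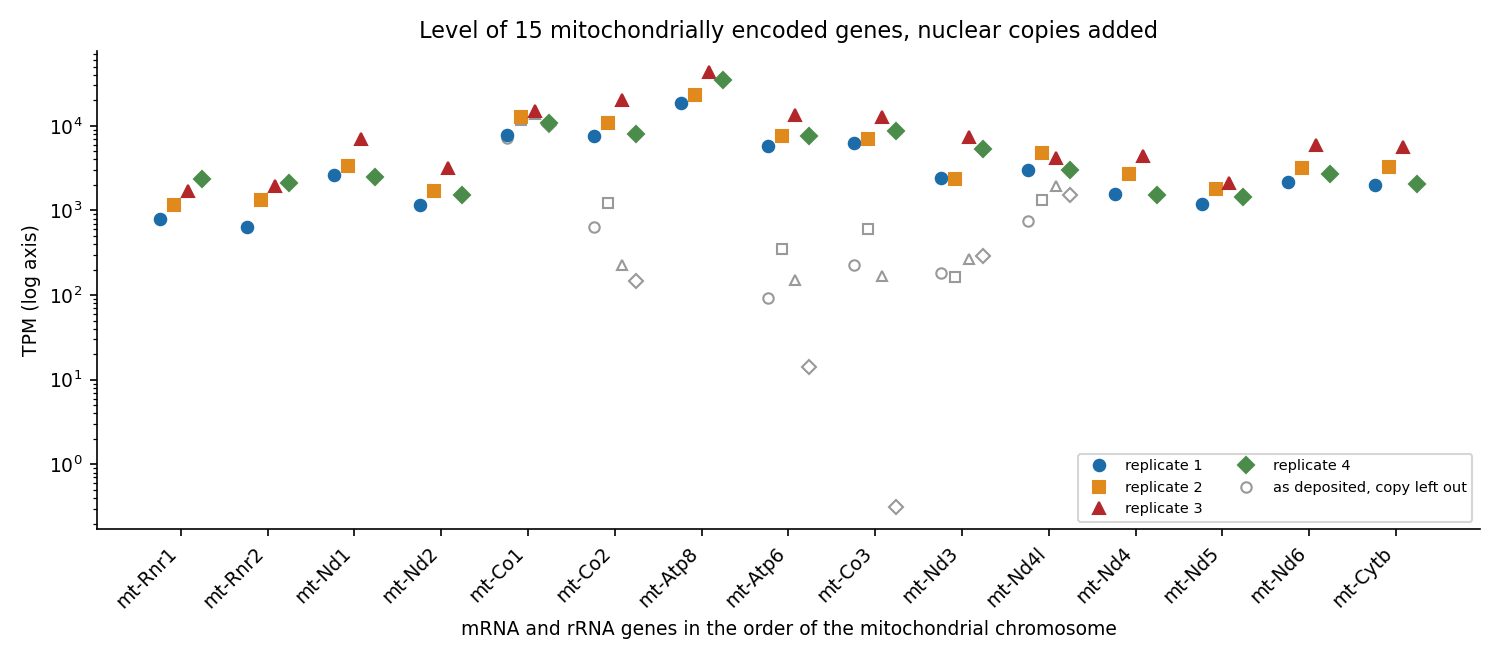
TPM of the 13 mRNA and 2 rRNA genes in each library, on a log axis and in chromosome order; filled points have the nuclear copy added, open grey points show the deposited value of the gene alone. Open points of mt-Co2, mt-Atp6, mt-Co3 and mt-Nd3 fall to between 0.31 and 1217 TPM, while filled points of all 15 genes lie between 637 and 42576 TPM.

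Whether the libraries differed by more than counting error was asked by a chi-square test of scaled expected counts over the 12626 genes whose counts averaged 10 or more, with library sizes from edgeR's TMM method and Benjamini-Hochberg adjustment at 0.05. A gene that passed and whose highest scaled count was at least 2 times its lowest was called variable. The test covers counting error only, since sequenced fragments are not independent molecules. All 15 mRNA and rRNA genes differed by more than counting error, where 88.6% of all tested genes did, and 12 of the 15 were called variable, where 33.0% of all tested genes were. The 22 tRNA genes, listed at 0 in the gene table, were not tested. With copies added, 12 of 15 were called, the background again 33.0%: mt-Nd3 was now called and mt-Nd4l was not. mt-Atp8 and mt-Nd5 were called under neither count, with ranges of 1.62-fold and 1.90-fold.

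Adding the copies took away the extreme ranges. As deposited, scaled counts of mt-Co3 ranged 1966-fold, those of mt-Atp6 24.6-fold and those of mt-Co2 8.15-fold between libraries. With copies added these ranges were 2.11-fold, 2.40-fold and 2.72-fold, and the 13 mRNAs ranged between 1.62-fold and 3.04-fold. The chi-square statistic with 3 degrees of freedom was 56192 for mt-Cytb and 1138 for mt-Atp8. By the deposited credibility bounds, 12 of the 14 genes with at least 1 TPM in every library had a pair of libraries whose intervals did not meet, where 77.5% of all such genes had one.

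The mRNAs moved between libraries as a set, and the rRNAs moved in another order. With copies added, 12 of 13 mRNAs were highest in replicate 3 and 11 of 13 were lowest in replicate 1. Both rRNAs were highest in replicate 4 and lowest in replicate 1. Among all tested genes 20.1% were highest in replicate 3 and 32.6% lowest in replicate 1. Under each of the 5 ways of scaling the libraries and in the second quantification, 12 mRNAs stayed highest in replicate 3 and both rRNAs highest in replicate 4. The number lowest in replicate 1 was 7 to 11, and the remaining mRNAs were lowest in replicates 2 or 4. These scalings moved the median gene by at most 0.10 on the log2 scale.

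mt-Nd1, mt-Cytb and mt-Nd4 stood farthest above their own means in replicate 3, by 1.02, 0.96 and 0.95 on the log2(CPM + 1) scale, and mt-Atp8 the least of the genes that peaked there, by 0.32. The median SD between libraries on this scale was 0.70 for the 15 genes as deposited, and 0.27 for all tested genes. Without replicate 3 the value for the 15 genes was 0.41 and 5 of the 15 genes were called, where 26.5% of all tested genes were; with copies added the 3 genes called were mt-Rnr1, mt-Rnr2 and mt-Nd3. Without replicate 1, 9 genes were called as deposited and 8 with copies added, where 16.1% of all tested genes were.

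Replicate 3 also stood apart in markers of another cell type. All 8 neutrophil and precursor markers were highest there, and their summed level was 198, 108, 728 and 69.0 TPM in replicates 1 to 4. S100a9 and S100a8 made up most of it, while Ly6g, a marker of mature neutrophils, was listed at 0 in all libraries but replicate 3, where it had 0.12 TPM. Their part in the mitochondrial levels was not tested. Replicates 1 and 2 came from 6 read files each and replicates 3 and 4 from 4 each, which no source calls a batch. The share of counts with copies added differed 1.499-fold between replicates 1 and 2 and 1.781-fold between replicates 3 and 4. Each of these pairs sets 1 library against 1, and any part of the number of read files was not tested. Within the pairs, 1 and 6 of the 15 genes ranged at least 2-fold. The share over all tested genes was not counted within these pairs, so whether the mitochondrial genes stood out there was not tested.

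The ratio of rRNA to mRNA differed between libraries as well. mt-Rnr1 and mt-Rnr2 together held 4.65%, 5.75%, 5.62% and 11.2% of all mitochondrial counts with copies added. Replicate 4 was apart from the other 3 libraries, which lay close together. The rRNA share of mitochondrial counts ranged 2.40-fold. Within the mRNAs, the share of a single gene ranged between 1.17-fold and 2.39-fold. mt-Co1 took 35.0%, 39.0%, 30.8% and 39.5% of the mRNA counts in replicates 1 to 4. mt-Atp6, which had the narrowest range, took 8.57%, 7.57%, 8.68% and 8.83%. The widest spread belonged to mt-Nd3, whose share of the mRNA counts ranged 2.39-fold.

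The 22 tRNA genes were all listed at 0 in the gene table, with an effective length of 0, so that table says nothing of their level. The second quantification gave them 678, 1606, 1271 and 1432 counts in replicates 1 to 4, and nearly all fell on light-strand genes. The 8 light-strand tRNA genes held 4912 counts over the 4 libraries and the 14 heavy-strand genes held 75, so that the light strand had 98.5% of tRNA counts. Without mt-Tp the light-strand genes held 19.6%. Libraries were prepared from polyadenylated RNA, so these counts, like the rRNA values, describe that fraction and not the level of tRNA in the cells. mt-Tp, the proline tRNA gene next to the control region, had 494, 908, 1208 and 1326 counts. Like the rRNAs, it was lowest in replicate 1 and highest in replicate 4. The gene is shown because most tRNA counts lay on it; no base is marked.
mt-Tp, chrM:15356-15422, minus strand: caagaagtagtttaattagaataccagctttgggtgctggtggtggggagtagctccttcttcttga

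The other 7 light-strand tRNA genes were all highest in replicate 2. mt-Tc, for cysteine, had 56, 306, 17 and 27 counts in replicates 1 to 4, and mt-Tn, for asparagine, had 16, 83, 15 and 40. mt-Ts1, for serine, had 41, 127, 1 and 8 counts, and mt-Te, for glutamate, had 34, 67, 15 and 15. mt-Ty, for tyrosine, had 5, 35, 5 and 6 counts and mt-Ta, for alanine, 8, 29, 3 and 3, while mt-Tq reached at most 11. These 7 genes together had 163, 658, 56 and 99 counts. mt-Ta, mt-Tn, mt-Tc and mt-Ty are consecutive on the chromosome, and the 32-base gap between mt-Tn and mt-Tc is the place where light-strand DNA synthesis is known to start. No heavy-strand tRNA gene had more than 19 counts in any library, and mt-Tv and mt-Td were listed at 0 in all. The strand setting of the quantification is not given in the sources used here, so reads of the light-strand genes, mt-Nd6 included, cannot be told from reads of the opposite strand's precursor.

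**Figure D3:**
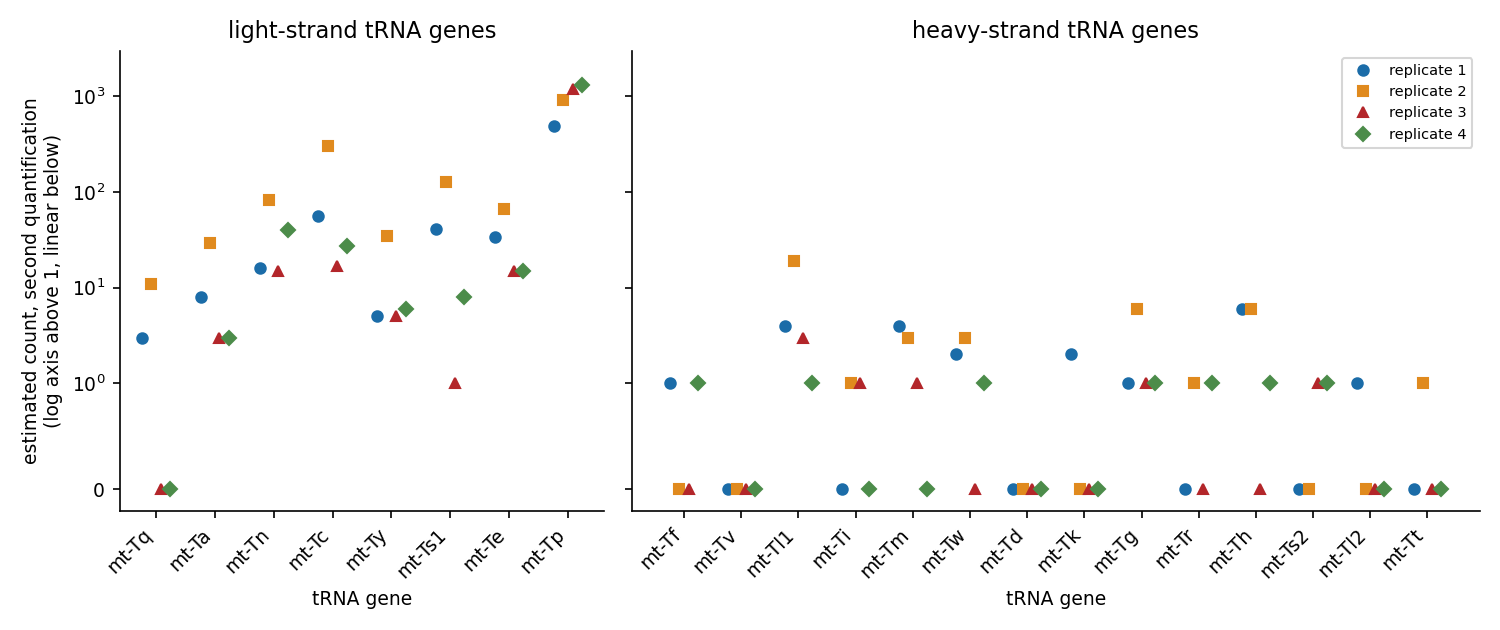
Estimated counts of the 22 mitochondrial tRNA genes in the second quantification, light-strand genes on the left and heavy-strand genes on the right, 1 point per library, on an axis that is logarithmic above 1 and linear below. mt-Tp reached 1326 counts and mt-Tc 306, while no heavy-strand gene passed 19.

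With copies added, the mitochondrially encoded mRNAs stood far above the nuclear mRNAs for the same complexes. Over all 4 libraries they also differed more between libraries. With copies added, the median of the 7 mitochondrial complex I mRNAs was 37.9 ± 12.9 times (SD, n = 4 libraries) the median TPM of the 36 nuclear complex I genes. The ratio was 41.1 ± 15.6 for complex IV, 29.5 ± 21.9 for the single gene of complex III, and 78.4 ± 35.5 for ATP synthase, where mt-Atp8 with its short effective length is 1 of the 2 genes. The nuclear median for ATP synthase was taken over 18 genes, among them Atp5o, whose entry was listed at 0 TPM. With copies added, every mitochondrial mRNA was above every nuclear gene of its complex in mean TPM. As deposited, mt-Atp6 (152 TPM), mt-Nd3 (225 TPM), mt-Co3 (250 TPM) and mt-Co2 (558 TPM) were each below the highest nuclear gene of their complex. The highest nuclear means were 276 TPM for complex I (Ndufa1), 377 for complex III (Uqcrh), 581 for complex IV (Cox6b1) and 515 for ATP synthase (Atp5b, the catalytic subunit).

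**Figure D4:**
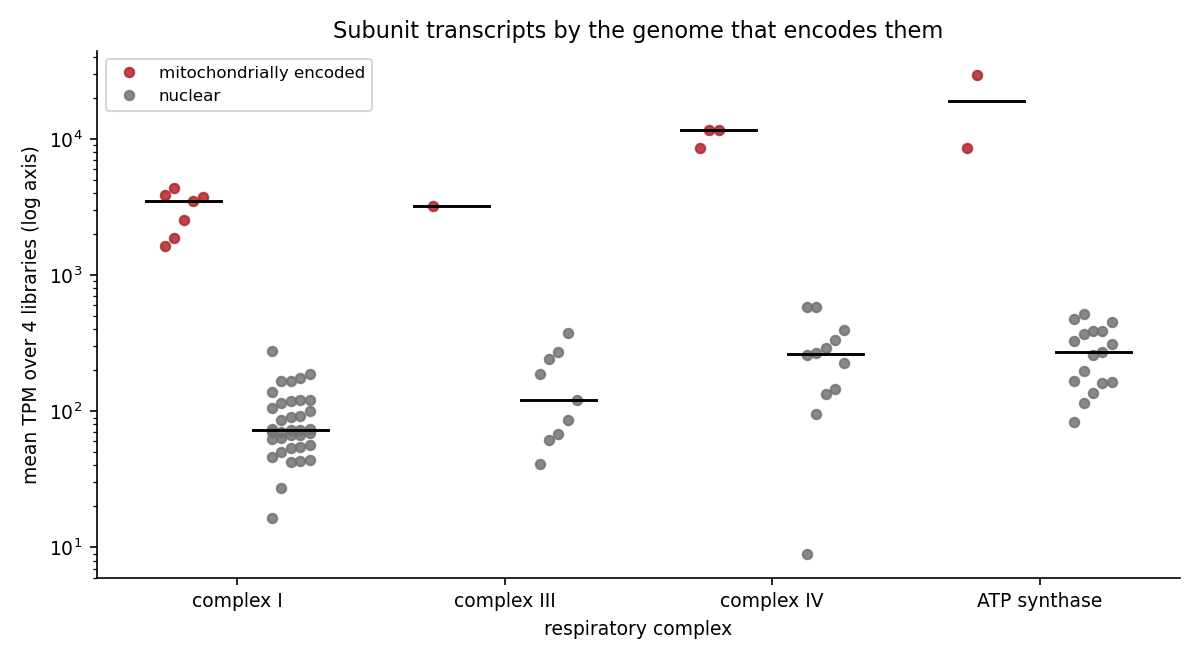
Mean TPM over the 4 libraries of mitochondrially encoded subunit genes (red, nuclear copies added) and nuclear subunit genes (grey) of each respiratory complex, on a log axis; short black lines are medians of the points shown, and 1 nuclear ATP synthase gene listed at 0 TPM is not drawn. The red points lie between 1642 and 29667 TPM and the grey ones between 8.97 and 581 TPM, without overlap.

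Of the 15 mitochondrially encoded genes 12 were called variable, against 2 of the 78 tested nuclear subunit genes of complexes I to IV and ATP synthase and 33.0% of all genes. Much of this rested on replicate 3. Without it 5 mitochondrially encoded genes were called, where 26.5% of all tested genes were. With copies added 3 were called, and mt-Nd3 was the only mRNA among them. The nuclear count without replicate 3 was 1. The 1 of the 79 nuclear genes not tested was Atp5o, whose matched entry was listed at 0 TPM in every library. Whether another entry holds the reads of that gene was not examined. Ndufa5, a complex I subunit, had 87.2, 52.8, 74.3 and 38.3 TPM in replicates 1 to 4. Uqcrb, a complex III subunit, had 259, 220, 420 and 182 TPM. The median SD between libraries was 0.70 for the mitochondrially encoded genes as deposited, or 0.65 with copies added, against 0.21 for the nuclear subunits, in log2(CPM + 1). No nuclear gene of complex II, complex IV or ATP synthase was called, and Sdhb of complex II had 118, 109, 112 and 115 TPM. The nuclear subunits did not peak in replicate 3: 42 of the 78 were highest in replicate 1, where 35.8% of all tested genes were, and 17 in replicate 3. The nuclear count was between 0 and 8 under the other scalings, in the second quantification and with a library left out. In these settings 16.1% to 36.1% of all tested genes were called. The nuclear count was 27 when a 1.5-fold range was enough, where 58.2% of all tested genes were called.

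**Figure D5:**
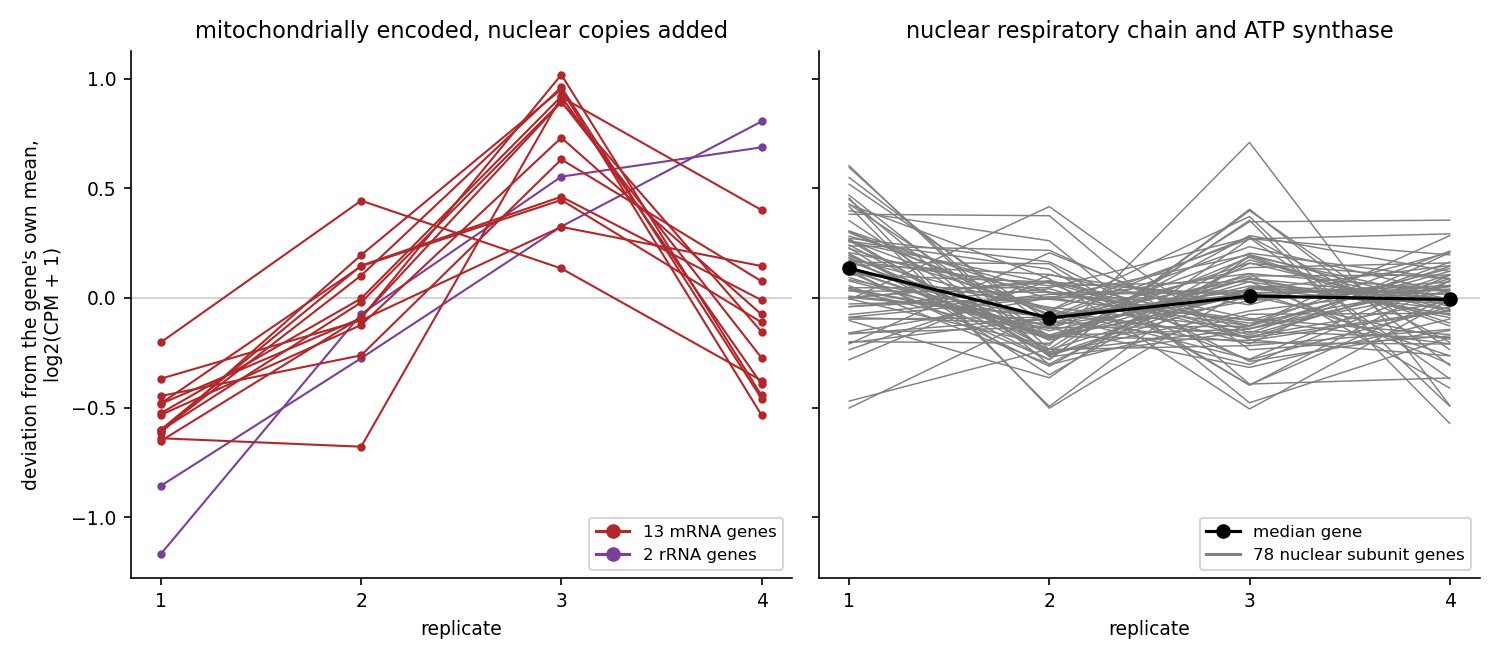
Deviation of each gene from its own mean over the libraries, in log2(CPM + 1), by replicate; left, 13 mitochondrial mRNA genes (red) and 2 rRNA genes (purple) with nuclear copies added, right, 78 nuclear subunit genes (grey) with their median gene (black). The mRNA lines peak in replicate 3 in 12 of 13 cases and the rRNA lines end highest in replicate 4, while the nuclear median stays between -0.09 and 0.14.

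Among nuclear genes that copy, transcribe, process, stabilise or translate mitochondrial RNA or DNA, or that regulate mitochondrial biogenesis, 53 of 56 were tested and 8 were called variable, against the same 33.0% of all genes. None of the 6 tested genes of the mitochondrial transcription machinery was called: Tfam, which packages mitochondrial DNA and activates its promoters, had 17.1, 10.8, 16.5 and 9.72 TPM in replicates 1 to 4, and Tfb2m, which opens the promoter for the polymerase, had 7.37, 7.37, 7.41 and 6.02 TPM. The factors that bind and stabilise mitochondrial mRNA were also not called, and Slirp had 74.1, 62.8, 72.7 and 58.2 TPM. Trmt10c, a subunit of the enzyme that cuts the 5′ ends of mitochondrial tRNAs, ranged most, with 10.1, 2.34, 6.54 and 1.94 TPM, a 4.75-fold range of scaled counts. It was highest in replicate 1 and lowest in replicate 4.

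The other called genes of this group included Tbrg4 and Trmt5 in RNA processing, Top1mt, the mitochondrial type I topoisomerase, and Tsfm, a translation elongation factor. Tbrg4 had 24.7, 10.3, 9.96 and 12.7 TPM and Tsfm had 12.8, 6.58, 5.79 and 7.20 TPM in replicates 1 to 4. The biogenesis regulators called were Pprc1, Ppargc1b and Tfeb. Pprc1, a coactivator of the PGC-1 family, had 16.0, 5.17, 6.39 and 5.76 TPM, and Tfeb, a regulator of lysosomal genes, had 11.4, 22.7, 15.1 and 18.4 TPM. Replicate 1 was the highest library for each of these called genes except Tfeb, and for 33 of the 53 tested genes of the group, where 35.8% of all tested genes were highest there. Without replicate 1, 2 genes of the group were called, where 16.1% of all tested genes were.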

How the data were processed

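Per the labels, 4 polyadenylated RNA libraries of 1 group were sequenced. The gene tables deposited by the authors hold expected counts and TPM, with posterior mean TPM and credibility bounds, a signal whose level is not stated. A second set of deposited transcript tables holds estimated counts and TPM, summed here to genes. Build mm10 and GENCODE M21 are named by the deposited file lists; which tools and which strand setting were used is not given in the sources used here. Rows that name no gene held 0.103% to 0.118% of counts and were left out. Expected counts were rounded for tests.

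Libraries were scaled with TMM factors (edgeR 4.0.16, R 4.3.3) and alternatively with DESeq2 1.42.0; the rest used Python 3.11.15, NumPy 2.4.6, SciPy 1.17.1 and pandas 2.3.3, with matplotlib 3.10.9 for figures. Copies were annotated nuclear genes with at least 90% of their 31-base words in transcripts of the mitochondrial genes. Genes below that part were not counted as copies, though they share some sequence. Among them were Gm13339, nearest to mt-Nd2, with 28.3% of its words, and Gm4076, nearest to mt-Nd5, with 24.6%. Levels in text are TPM, folds are of scaled counts, and deviations are in log2(CPM + 1). The test was checked on simulated data. All mRNA and rRNA genes are named, tRNA genes from a mean second count of 10, and in nuclear lists the highest and the most variable called genes. The members and lists were chosen with earlier results of these data known. Of 137 list symbols, 135 matched. Alternatives covered scaling, filters, fold threshold, quantification, copies and leaving out each library.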

Additional observations from a re-analysis of the deposited data

Results flagged for a closer look

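Each of 93 sets of 4 library values was examined for a library whose gap to the nearest other, divided by the whole range, was above Dixon's critical value for 4 values; chance gives about 1 such set in 20, and 9 were found. Among mitochondrially encoded genes, replicate 2 stood alone for mt-Tc (gap ratio 0.865; 56, 306, 17 and 27 estimated counts in replicates 1 to 4) and for mt-Ty (0.967; 5, 35, 5 and 6 counts). Replicate 4 stood alone for the rRNA share of mitochondrial counts (0.831; 4.65%, 5.75%, 5.62% and 11.2%).

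Among nuclear genes, replicate 1 was the high library for 5 genes by TPM. Atp5b had 816, 442, 389 and 412 TPM (0.878), Rnaseh1, which removes RNA primers, had 16.5, 11.3, 10.5 and 10.5 TPM (0.863), and Polg, the mitochondrial DNA polymerase, had 17.8, 9.59, 8.92 and 9.19 TPM (0.924). Fastk had 22.8, 17.5, 17.3 and 16.6 TPM (0.862), and Pprc1 had 16.0, 5.17, 6.39 and 5.76 TPM (0.887). Replicate 4 was the low library for Tfb2m, with 7.37, 7.37, 7.41 and 6.02 TPM (0.971). Replicate 1, high for these 5 genes, also had the largest share of nuclear ribosomal RNA, 12.3% of gene counts; its part in these values was not tested.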

How the results depend on the processing

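The number of mitochondrially encoded genes called variable was 12 as reported, where 33.0% of all tested genes were called. It ranged from 5 (without replicate 3) to 12 when each library was left out. With copies added, a choice made after seeing the data, it ranged from 3 to 12. In both cases 16.1% to 29.2% of all tested genes were called. The nuclear respiratory chain count was 2 as reported; the share of all tested genes called is given in brackets. It was 4 with totals that leave out mitochondrial genes and copies (33.3%) and 8 with totals that also leave out ribosomal RNA (34.1%). It was 27 with a 1.5-fold range (58.2%), 7 in the second quantification (36.1%) and 0 to 2 with a library left out (16.1% to 29.2%). The mitochondrial gene expression count, 8 as reported, was 28 with a 1.5-fold range, where 58.2% of all tested genes were called. It was 2 to 8 with a library left out, where 16.1% to 29.2% of all tested genes were called. The share of gene counts, 2.09%, was 3.05% with copies added and 1.75% to 2.35% with a library left out. Genes with separate credibility intervals numbered 12 of 14 with all libraries, where 77.5% of all such genes had them. With a library left out they numbered 11 to 13 of the 14 or 15 compared. The share over all genes was not counted there. The cause of these shifts was not tested beyond what the settings themselves change. The second quantification moved the mean TPM of 6 genes by more than 1 SD, mt-Atp8 among them at 7031 against 29667, and the posterior mean moved 2, mt-Co3 to 2616 against 250.2 and mt-Atp6 to 524 against 152. No paired analysis was possible because all 4 libraries belong to 1 group. Counts limit the tRNA genes most, with 678 to 1606 per library over all 22.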
